A study of Mus musculus with 6 samples.

Results

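Retinoic acid synthesis and receptor genes were followed in the degenerating mouse retina between 2 and 8 months of age. The members were 10 named genes: Aldh1a1, Aldh1a2, Aldh1a3, Cyp26a1, Crabp1, Crabp2, Rara, Rarb, Rarg and Rxra. Every probe whose only gene symbol in the array annotation was one of these names was taken, which gave 18 of the 45281 probes on the array and 10 of its 19057 named genes. RNA of the central retina was measured on single-colour Illumina bead arrays in 6 samples of rd1/rd1 mice, 3 aged 2 months and 3 aged 8 months, all untreated. The rd1 mutation disables Pde6b, the beta subunit of rod phosphodiesterase, so rods and later cones die, and animals of both ages carried it. For each sample 3 to 6 punches of 1.5 mm diameter were combined. How many animals a pool drew on, their sex and the genetic background are not stated in the labels, so p-values measure the spread between pools.

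Retinoic acid is made from vitamin A in 2 oxidation steps, retinol to retinal by retinol dehydrogenases and retinal to retinoic acid by the Aldh1a enzymes. Crabp1 and Crabp2 carry it in the cytoplasm, Cyp26 enzymes break it down, and in the nucleus it binds the receptors Rara, Rarb and Rarg, which sit on DNA as pairs with a retinoid X receptor such as Rxra. In the retina the Aldh1a enzymes are known for their uneven dorsal and ventral expression, and signalling through retinoic acid receptors has been linked to the hyperactivity of inner retinal neurons after photoreceptor loss. The comparison asks whether RNA of this pathway differs between an earlier and a later stage after that loss.

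Rarb and Cyp26a1 are textbook target genes of the receptors, and their response elements are shown because the levels of these 2 genes are among the values described. RefSeq promoter windows (GRCm38.p6), each 250 bases before to 50 bases after a gene's start, were found for 8 of the 10 members, 14 windows in all; Aldh1a3 and Crabp2 had no match. They were searched on both strands for the receptor half-site, which may read AGGTCA or AGTTCA or GGGTCA or GGTTCA, and for direct repeats of 2 half-sites spaced by 1, 2 or 5 bases, which overlap the half-site itself. A repeat spaced by 5 was found in 2 of the 14 windows, those of Rarb and Cyp26a1, and in 32 of all 32851 windows (0.0974%). Repeats spaced by 1 and by 2 were in 0 of the 14, against 0.222% and 0.268% of all windows, and single half-sites were in 7 of the 14, against 43.7% of all. A match describes these letters only. Both elements follow with flanks, 30 bases each, written in the direction of the gene, with the repeat in capitals; the Rarb stretch lies at chr14:16575506-16575535 (minus strand) and that of Cyp26a1 at chr19:37697770-37697799 (plus strand).
Rarb: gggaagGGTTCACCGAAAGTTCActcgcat
Cyp26a1: taaagaTGAACTTTGGGTGAACTaatttgt
The Rarb repeat runs in the direction of its gene, from 53 to 37 bases before the start. The Cyp26a1 repeat runs against its gene, from 32 to 16 bases before the start, and read along its own strand is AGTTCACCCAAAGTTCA. Read that way, 15 of the 17 bases are shared, with the changes G1A and G9C from Rarb to Cyp26a1 (position 1 is the first base of the first half-site). The whole 250 bases before the Rarb start, chr14:16575477-16575726 on the minus strand, place the repeat, again in capitals, near the start.
Rarb: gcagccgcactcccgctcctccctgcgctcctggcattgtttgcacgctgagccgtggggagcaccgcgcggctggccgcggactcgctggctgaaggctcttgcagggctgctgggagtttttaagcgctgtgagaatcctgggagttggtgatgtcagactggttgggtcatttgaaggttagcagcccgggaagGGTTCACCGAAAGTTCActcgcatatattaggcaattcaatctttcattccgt

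No member passed the test for a change between 2 and 8 months: none of the limma p-values, adjusted over the 12046 tested genes by the Benjamini-Hochberg method, fell below 0.05. In the same fit 0.224% of all genes were called, 19 higher and 8 lower at 8 months, so 0 calls among 9 tested members is near the background. At an unadjusted p below 0.05 there was 1 of 9, Crabp2, against 10.4% of all genes. Testing required a probe to lie above its array's median on 3 or more arrays. Of the 18 member probes 13 passed, from 9 genes, and Aldh1a3 had none. The ages did not overlap for 2 of the 9, Crabp2 (higher) and Aldh1a2 (lower), against 15.0% of all genes. Fitted probe by probe over all 22458 kept probes, 0 of the 13 member probes were called by limma, against 0.0490% of all, and 1, that of Crabp2 (adjusted p = 0.202), had an unadjusted p below 0.05, against 9.06%. The 9 changes, 8 minus 2 months on the log2 scale, ran from −0.05 to 0.20 with 5 positive, 4 negative and a median of 0.03, while the median over all genes was 0.00048. In bulk tissue, fewer cells of a type and less RNA per cell cannot be told apart.

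Most member probes were dim. The median of every array was 7.19, and 12 of the 18 probes stayed within 0.2 of it on all 6 arrays, including every probe of Aldh1a2, Aldh1a3, Rara, Rarg and Rxra. At that level the signal is close to background and differences are compressed, so for these 5 genes the arrays bound the change in signal but may not bound the change in RNA. The probes of Aldh1a1 and Crabp1, 1 of 2 probes of Cyp26a1 and 2 of 3 of Rarb stood clearly above it, and the Crabp2 probe slightly so.

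**Figure D1:**
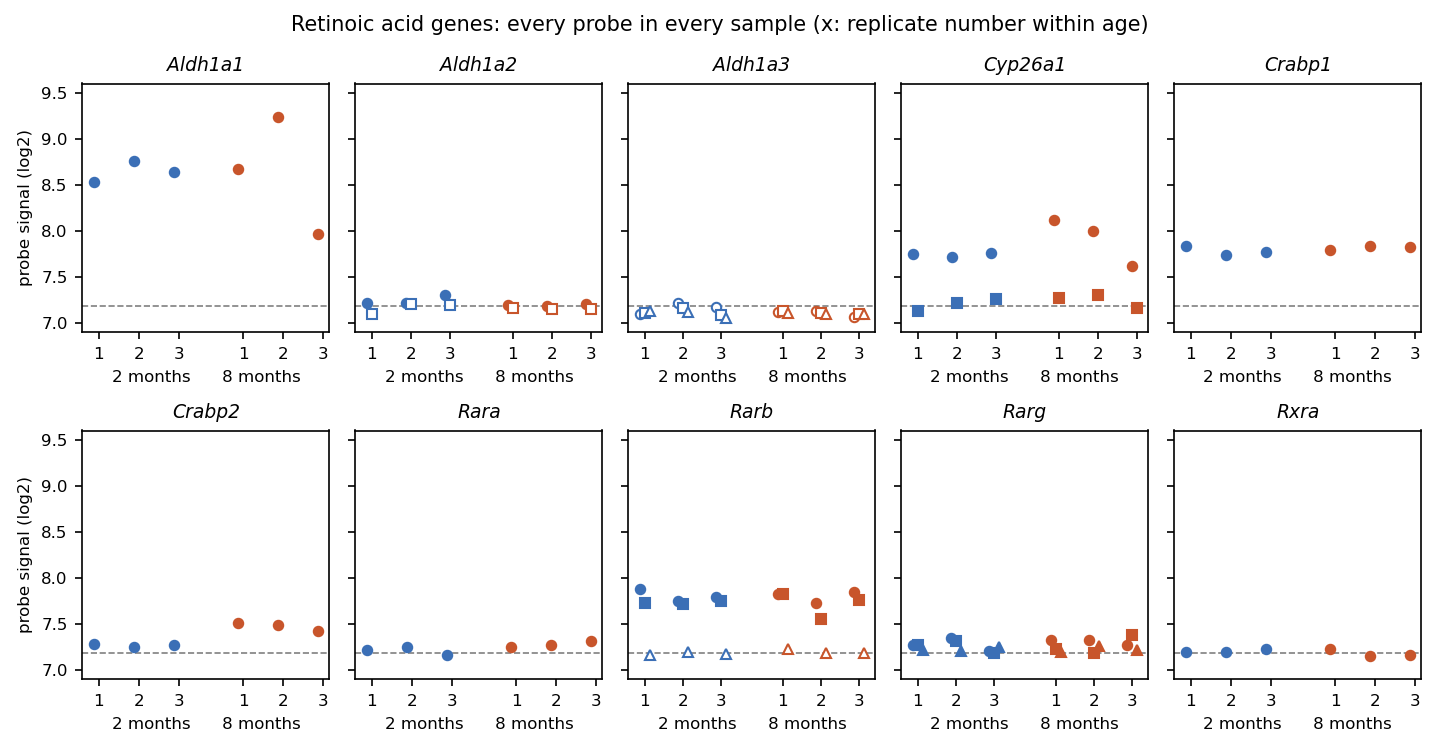
Log2 probe signal of the 10 members in each sample, blue for 2 months and orange for 8 months, with the replicate number on the x axis; circles, squares and triangles are different probes of a gene, open symbols are probes that did not pass the filter, and the dashed line is the array median of 7.19. Aldh1a1 spreads from 7.96 to 9.24 at 8 months, the 3 Crabp2 values at 8 months lie above the 3 at 2 months, and the probes of Aldh1a2, Aldh1a3, Rara, Rarg and Rxra lie along the dashed line.

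Among the enzymes of synthesis, Aldh1a1, the retinal dehydrogenase known for dorsal retina (probe ILMN_1222734), had nearly equal means at both ages and a wide spread at 8 months. Its log2 signal was 8.53, 8.75 and 8.64 in 2 month replicates 1, 2 and 3 and 8.67, 9.24 and 7.96 in those of 8 months. At 8 months replicate 2 was the highest and replicate 3 the lowest of all 6 samples, with the 2 month samples between them. The mean went from 8.64 ± 0.112 to 8.62 ± 0.639 (SD, n = 3 per age), a difference of −0.02 (SE 0.280; limma, adjusted p = 0.992). The 95% interval of the ratio of 8 to 2 months ran from 0.627 to 1.56, so the data leave the size of any change in this gene wide. The within-age SD was 0.459, and 71 of the 12046 genes had a larger one. The change was 0.31 without 8 month replicate 3 (adjusted p = 0.703) and −0.32 without 8 month replicate 2 (adjusted p = 0.684).

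Aldh1a2, the retinal dehydrogenase known in the eye for expression in the choroid, was close to the array median. Its kept probe (ILMN_2630749) gave 7.22, 7.22 and 7.30 at 2 months and 7.20, 7.18 and 7.21 at 8 months. All 8 month values lay below those of 2 months, and the mean difference was −0.05 (SE 0.0479; limma, adjusted p = 0.802; ratio 0.964 with a 95% interval of 0.892 to 1.04). The other probe had a change of −0.0079 between overlapping values of 7.10 to 7.20. Aldh1a3, the retinal dehydrogenase known for ventral retina, had 3 probes, and none passed the filter. Their values lay between 7.06 and 7.22 in every sample, and their changes were −0.06, −0.01 and −0.0022, with overlapping ages for all 3.

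Cyp26a1, which oxidises retinoic acid and so ends its signal, was higher in 2 of the 3 samples at 8 months. Its brighter probe (ILMN_2957054) read 7.74, 7.71 and 7.76 at 2 months and 8.12, 8.00 and 7.62 at 8 months. Replicates 1 and 2 of 8 months lay above every 2 month sample and replicate 3 below every one. The change was 0.18 (SE 0.119, from 7.74 ± 0.0234 to 7.91 ± 0.260, n = 3 per age; adjusted p = 0.705 by limma), a ratio of 1.13 with a 95% interval of 0.932 to 1.37. Without 8 month replicate 3 it was 0.32 (adjusted p = 0.276) and without 8 month replicate 1 it was 0.07 (adjusted p = 0.939), so single samples set its size. The dimmer probe ran from 7.13 to 7.30 with a change of 0.04, and again 8 month replicate 3 was the lowest of its age.

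Crabp2, the binding protein that hands retinoic acid to its receptors, was the only member whose 95% interval lay to one side of zero. Its probe (ILMN_1214483) gave 7.29, 7.25 and 7.27 at 2 months and 7.51, 7.49 and 7.42 at 8 months. All 3 samples of 8 months were above all 3 of 2 months. The 2 month values lay within 0.2 of the array median, where differences are compressed, so the ratio is one of signal and may not bound that of RNA. The mean went from 7.27 ± 0.0163 to 7.47 ± 0.0490 (SD, n = 3 per age), a change of 0.20 (SE 0.0479) with a 95% interval of 0.09 to 0.31, or a ratio of 1.15 with an interval of 1.06 to 1.24. With an unadjusted p of 0.00367 it ranked 211 among 12046 genes, and its adjusted p was 0.209 by limma. With a robust prior that follows the signal level, under which 52 genes were called in each direction, its adjusted p was 0.0386, the lowest of 13 alternatives whose values ran up to 0.478. Leaving out 1 sample kept the change between 0.18 and 0.23. The level at both ages was low, from the 59.4th to the 70.2nd percentile of the probes of an array. Amacrine cell markers differed mostly in the same direction: 9 of 10 had positive changes, with a median of 0.13, and 0 were called by limma. Their mean relative to all samples was −0.11, −0.05 and −0.04 at 2 months and 0.03, 0.04 and 0.13 at 8 months. Within each age the order of samples differed from that of Crabp2. At 8 months Crabp2 fell from replicate 1 to replicate 3 while the marker mean rose. At 2 months Crabp2 was highest in replicate 1, where the marker mean was lowest. The marker values take 1 probe per gene, and other probes could differ. Calb2 had a change of 0.12 at that probe and −0.20 at its other kept probe. Gad1 had one of 0.13 at that probe and 0.28 at its next brightest. The ages did not overlap for 3 of the 10 markers, all higher, and for 1 more, Slc6a9, that was lower, against 15.0% of all genes. Gad2, an enzyme of GABA synthesis, led the 3 at 0.51 (SE 0.0964; limma, adjusted p = 0.135). Its adjusted p by limma was 0.0357 with the stricter filter and 0.0211 with the robust and trended prior. The part of these markers in the Crabp2 difference was not tested.

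Crabp1, which binds retinoic acid in the cytoplasm and is known from amacrine cells, had nearly the same level in all samples. Its probe (ILMN_1227671) read 7.84, 7.74 and 7.77 at 2 months and 7.79, 7.83 and 7.83 at 8 months. The ages overlapped, with a difference of 0.03 (SE 0.0491; limma, adjusted p = 0.900) and a ratio between 0.944 and 1.11 by the 95% interval. The difference between the changes of Crabp1 and Crabp2 was not tested.

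Of the receptors, Rarb was the one with probes clearly above the array median, and its means at the 2 ages differed by less than the spread between samples. The brighter probe (ILMN_2886828) gave 7.88, 7.75 and 7.79 at 2 months and 7.83, 7.73 and 7.85 at 8 months, and the next probe 7.73, 7.71 and 7.75 against 7.82, 7.55 and 7.76. In both the ages overlapped. The brighter probe differed by −0.0048 (SE 0.0572; limma, adjusted p = 0.989), a ratio of 0.997 with a 95% interval of 0.908 to 1.09. The other probes had changes of −0.02 and 0.02, the latter within 0.2 of the array median.

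Rara, the receptor present in most tissues, had values of 7.22, 7.25 and 7.16 at 2 months and 7.24, 7.27 and 7.32 at 8 months (probe ILMN_2661242). The ages overlapped, and its change of 0.07 (SE 0.0493) had a 95% interval of −0.05 to 0.19 (adjusted p = 0.720 by limma). Rarg, the receptor known best from skin and cartilage, had 3 kept probes with levels of 7.18 to 7.38. Their changes were 0.03, 0.0089 and 0.00047, and the first, at the brightest probe (ILMN_3132660), had an SE of 0.0544 (limma, adjusted p = 0.914). Rxra, the common partner of these receptors, was at 7.20, 7.19 and 7.22 at 2 months and 7.22, 7.16 and 7.17 at 8 months (probe ILMN_2741479), a difference of −0.02 (SE 0.0460; limma, adjusted p = 0.935). None of these probes left the neighbourhood of the array median in any sample.

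**Figure D2:**
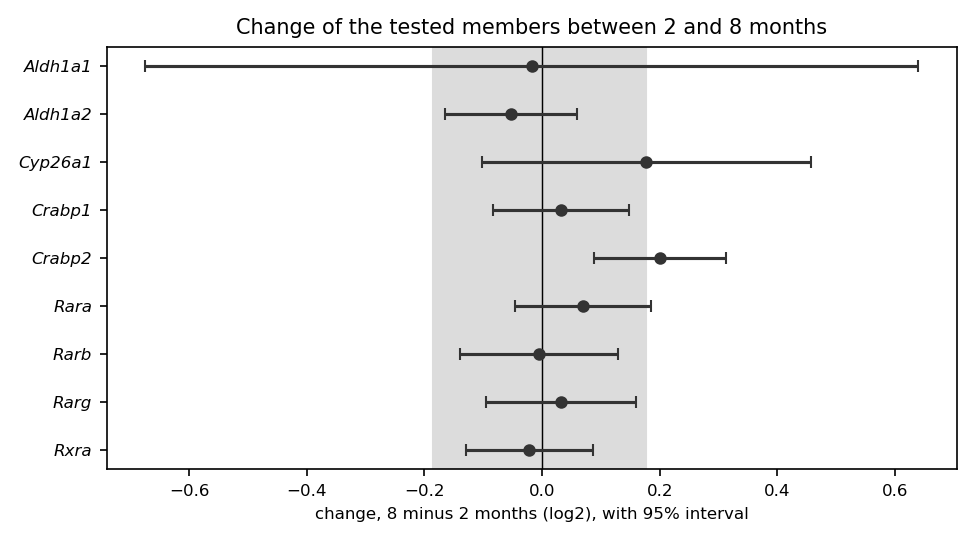
Change of the 9 tested members, 8 minus 2 months on the log2 scale, with 95% intervals from limma (n = 3 per age); the grey band holds the changes of all tested genes from the 5th to the 95th percentile, −0.18 to 0.18. Only the interval of Crabp2 lies to one side of zero, and that of Aldh1a1 is the widest, from −0.67 to 0.64.

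The rest of the pathway was described with 7 lists holding 84 further genes, of which 75 were on the array and 56 were tested. Over all genes 0 of the 56 were called higher, against 0.158%, and 0 lower, against 0.0664%, by limma. At an unadjusted p below 0.05 there were 6 higher and 4 lower, together 10 of 56 against 10.4% of all genes, and the ages did not overlap for 13, against 15.0%. The median change of the 56 was −0.0038. The values that follow are changes from the same fit, none of which passed.

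Genes of retinol uptake and binding (7 tested) all had negative changes, with a median of −0.21, and 1 had an unadjusted p below 0.05. Rbp3, the retinoid carrier that photoreceptors secrete into the space around their outer segments, had a change of −0.49 (SE 0.126, adjusted p = 0.235), with values of 11.0, 11.2 and 10.6 against 10.4, 10.5 and 10.4. The ages did not overlap, and without 2 month replicate 3 its change was −0.64 (adjusted p = 0.0362). Lrat, which esterifies retinol for storage, had a change of −0.43 (SE 0.196) and Rbp7, a cellular retinol binding protein, one of −0.09 (SE 0.0478). In the enzymes that interconvert retinol and retinal (13 tested, median −0.07, 10 negative), Rdh12, the retinol dehydrogenase of photoreceptors, had a change of −0.34 (SE 0.0919, adjusted p = 0.251) and −0.02 at its other probe. Rdh5, the dehydrogenase of the pigment epithelium, had one of −0.80 (SE 0.339), and −0.00037 at its other, dim probe. Adh7, an alcohol dehydrogenase that oxidises retinol, had a change of −0.81 (SE 0.538) that came from 2 month replicate 2, at 9.50 against 7.16 to 7.43 in the other samples; without that sample it was −0.09. Without 8 month replicate 3 the change of Rdh5 was −0.38 and that of Lrat −0.23, and without 2 month replicate 2 that of Lrat was −0.28.

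These 2 lists share genes with cell types whose markers also differed between the samples. Of 16 pigment epithelium markers, 15 had negative changes, 0 of them called, and their summed signal on the linear scale was 34174 to 44040 at 2 months and 22243 to 35980 at 8 months; Tyr, Slc45a2 and Mitf stayed within 0.2 of the array median. Ttr, Lrat and Rdh5 are on that list too. It also holds Trpm1 and Otx2, which neurons of the retina express as well. The count, sum and mean of the list are therefore not of pigment epithelium alone. Of 10 tested cone and rod markers, 8 had negative changes and 2 were called lower, against 0.0664% of all genes. The summed signal of the 10 was 14193 to 19576 at 2 months and 4934 to 7809 at 8 months, and none of them was near the median throughout. Markers of tissue outside the retina also differed, and 2 month replicate 2 stood apart in them: its mean relative to all samples was 1.39 over 5 skeletal muscle, 1.29 over 4 red blood cell, 0.36 over 7 fibroblast-like cell and 0.26 over 7 pericyte and smooth muscle markers. All 4 red blood cell markers were lower at 8 months with no overlap, against 15.0% of all genes without overlap (median −1.59, 0 called by limma). Slc4a1, among these 4, stayed within 0.2 of the array median and had a change of only −0.03. All 5 muscle markers had negative changes (median −0.48, 0 called). The part of all these markers in the changes of Rbp3, Rdh12, Lrat, Rdh5 and Adh7 was not tested.

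**Figure D3:**
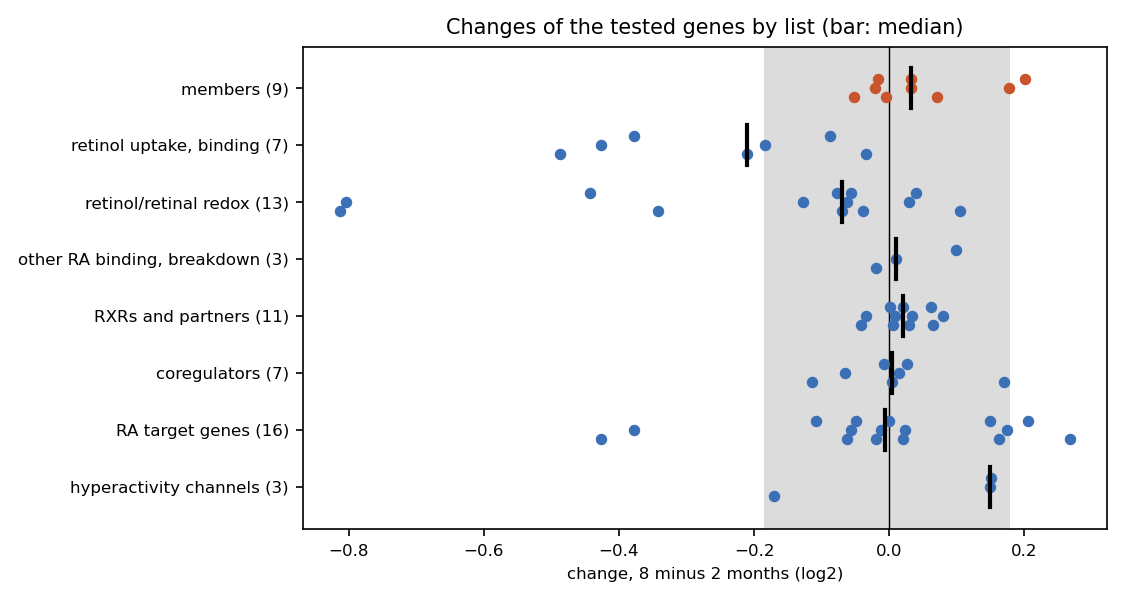
Change of each tested gene, 8 minus 2 months on the log2 scale, by list, with the number of tested genes in brackets and a black bar at the median; the grey band holds the changes of all tested genes from the 5th to the 95th percentile, −0.18 to 0.18. The 7 genes of retinol uptake and binding all lie below 0, the retinoid X receptors with their partners run from −0.04 to 0.08, and the coregulators from −0.11 to 0.17.

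Downstream of the ligand, known target genes outside the members (16 tested) had a median change of −0.0065, with 7 positive and 9 negative. By limma 4 had an unadjusted p below 0.05, against 10.4% of all genes in either direction. All 4 were higher, and 5.10% of all genes were higher at that p. Lrat, on this list too, had the lowest change of it (−0.43). Tgm2, a transglutaminase that retinoic acid induces in many cells, was at 8.37, 8.55 and 8.41 at 2 months and 8.86, 8.68 and 8.59 at 8 months. The ages did not overlap, and the difference was 0.27 (SE 0.0823; limma, adjusted p = 0.311). Rai14 and Rai1, both named for induction by retinoic acid, had changes of 0.21 (SE 0.0839) and 0.15 (SE 0.0565). Without 2 month replicate 1 that of Rai14 was 0.11. Other kept probes of Rai1 had changes of 0.05 and 0.02, and the other Rai14 probes were below the filter. Genes with the repeat spaced by 5 in a promoter window numbered 31, of which 7 were tested, Rarb and Cyp26a1 among them. Of these 7, 0 were called by limma and 0 had an unadjusted p below 0.05, and their changes ran from −0.11 to 0.18 with a median of −0.0033.

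The remaining proteins that act on retinoic acid or with its receptors had small changes. Cyp2s1, Fabp5, which carries retinoic acid to another receptor, and Cyp26b1, a second degrading enzyme, had changes of 0.10 (SE 0.0466), 0.01 (SE 0.0489) and −0.02 (SE 0.0660). Cyp2s1 did not overlap between ages. The other retinoid X receptors and their partner receptors (11 tested) ran from −0.04 to 0.08, with Rora at 0.08 (SE 0.0635), the thyroid hormone receptor Thra at 0.06 (SE 0.0716) and the oxysterol receptor Nr1h3 at −0.03 (SE 0.0473). Rxrb and Rxrg, the other members of the Rxr family, had changes of 0.0085 (SE 0.0990) and −0.04 (SE 0.0836). Of 7 tested coregulators, Hdac3, the deacetylase of the corepressor complex, had a change of 0.17 (SE 0.0723; limma, adjusted p = 0.479), or 0.11 without 8 month replicate 2. Tbl1x and Tbl1xr1, exchange factors of that complex, had changes of −0.11 (SE 0.0836) and −0.07 (SE 0.0728), the former between −0.18 and −0.04 when 1 sample was left out. Among the channels linked to hyperactivity, P2rx2, an ATP-gated channel, was at 7.33, 7.30 and 7.31 at 2 months and 7.15, 7.09 and 7.17 at 8 months. All 8 month values lay below the array median, so it passed the filter through the 2 month samples alone; the separation of its ages supports nothing, although it is among the counts given for the 56 genes. All 6 values were within 0.2 of the array median. P2rx4 and the pacemaker channel Hcn2 had changes of 0.15 each (SE 0.0629 and 0.0584). The other kept P2rx4 probe had one of 0.05, and without 2 month replicate 2 the change was 0.10. P2rx7, the ATP-gated channel named in work on retinoic acid and ganglion cells, had no probe past the filter and values of 7.05 to 7.22.

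The spread of Aldh1a1 at 8 months was set beside the samples' other content. Of 9 tested markers of inner retinal neurons and Müller glia 0 were called by limma. For 2, both lower, the unadjusted p was below 0.05, against 10.4% of all genes in either direction. The ages did not overlap for 3, all lower, against 15.0% of all genes in either direction. Slc6a9, Gad1 and Calb2, of amacrine cells, and Rlbp1, of Müller glia, had means of 12.1 to 13.5 at both ages. Prkca, of rod bipolar cells, was as bright and had a change of −0.21 (SE 0.0782; limma, adjusted p = 0.410), or −0.14 without 2 month replicate 2. The dimmest of the 9 was Pax6, a transcription factor of amacrine and ganglion cells, with means of 7.49 at 2 months and 7.52 at 8 months. In 8 month replicates 1, 2 and 3, Stra6, the cell surface receptor for retinol uptake known from the pigment epithelium, was at 8.64, 8.88 and 7.90. Rdh5 was at 10.8, 11.1 and 9.66 and Rpe65, the isomerase of the visual cycle, at 9.13, 9.07 and 8.08 in the same samples. In all 3, as in Aldh1a1 and Cyp26a1, replicate 3 was the lowest of all 6 samples. Stra6 is not among the 16 pigment epithelium markers, and not all of those went this way. Best1, which is among them, was highest in 8 month replicate 3, at 7.47 against 7.35 to 7.46 in the other samples. The mean of the 16 pigment epithelium markers relative to all samples was −0.03, −0.06 and −0.48 in 8 month replicates 1, 2 and 3. At 2 months it was −0.03, 0.49 and 0.11. Relative to all samples Aldh1a1 was −0.10, 0.12 and 0.01 at 2 months and 0.04, 0.61 and −0.67 at 8 months. Cyp26a1 was −0.08, −0.11 and −0.07 at 2 months and 0.29, 0.17 and −0.20 at 8 months. Aldh1a1 and the pigment epithelium mean ordered the 2 month samples alike and were lowest in 8 month replicate 3. Aldh1a1 was highest in 8 month replicate 2, and the pigment epithelium mean in 2 month replicate 2. Over 7 Müller glia markers the mean relative to all samples was 0.03, −0.06 and 0.07 at 2 months. At 8 months it was −0.03, 0.08 and −0.09. Like Aldh1a1, this Müller glia mean was highest in 8 month replicate 2 and lowest in 8 month replicate 3. It ordered the 2 month samples differently from Aldh1a1. The mean of the 5 tested dorsal markers relative to all samples was 0.03, 0.07 and 0.02 in 8 month replicates 1, 2 and 3, and that of the 4 ventral markers 0.0032, −0.07 and 0.08. All 5 dorsal changes were positive, and 2 of the 4 ventral ones. By limma 0 of either list were called. For 1 ventral marker, Bmpr1b, the unadjusted p was below 0.05 (change 0.15, SE 0.0509, adjusted p = 0.372), against 10.4% of all genes. Its other kept probe had a change of 0.28. Tbx5 and Ephb3 were within 0.2 of the array median. The summed signal was 1521 to 1672 at 2 months and 1650 to 1733 at 8 months for dorsal, and 1156 to 1243 and 1131 to 1290 for ventral markers. The part of these markers in the spread of Aldh1a1 was not tested. Samples also differed in sex-linked RNA: Xist was at 9.40 and 8.73 in 2 month replicates 1 and 2 and at 10.5 to 11.1 in the other samples. The Y-linked Eif2s3y, at a probe below the filter, was at 7.79 and 8.27 in 2 month replicates 1 and 2. In the other samples it was at 7.10 to 7.18. The samples that stood apart were 2 month ones, so sex-linked RNA was partly confounded with age. The part of sex in the values of the members was not tested.

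**Figure D4:**
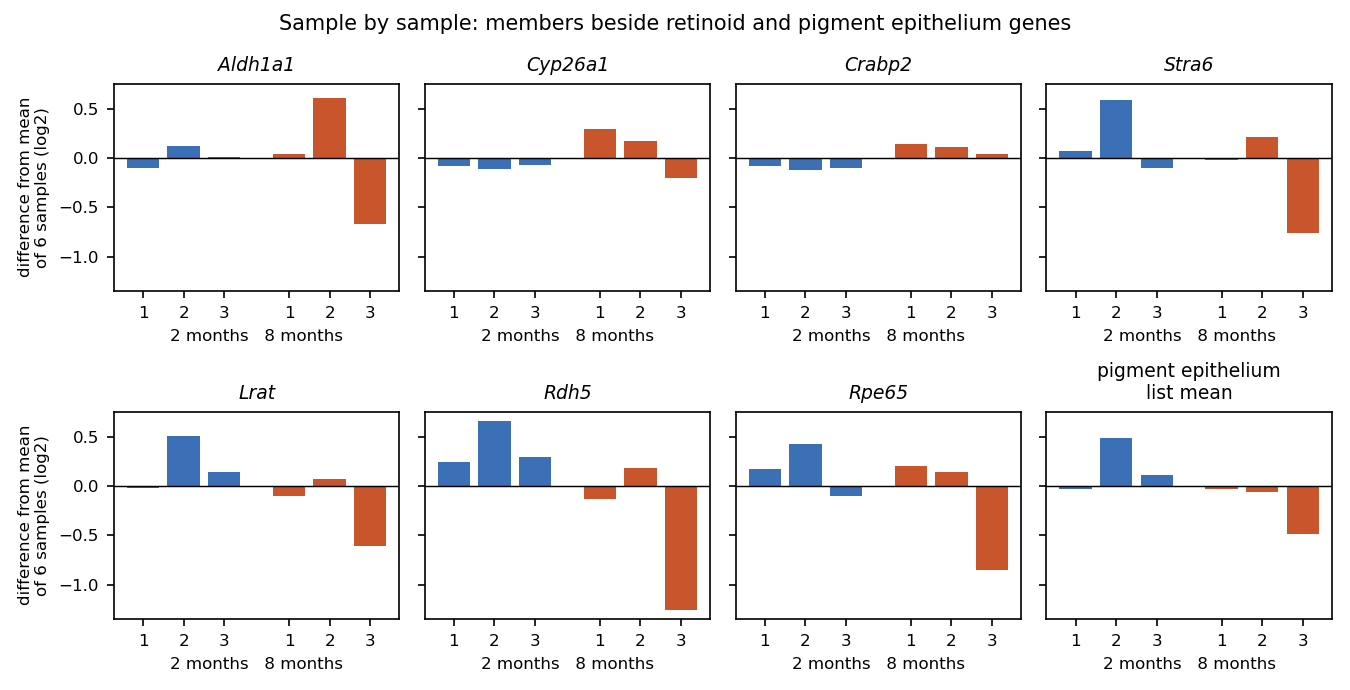
Difference of each sample from the mean of the 6 samples, in log2 units, for the members Aldh1a1, Cyp26a1 and Crabp2, for Stra6, Lrat, Rdh5 and Rpe65, and for the mean of the 16 pigment epithelium markers; blue bars are 2 month and orange bars 8 month replicates 1 to 3. In 8 month replicate 3 every bar but that of Crabp2 points down, and the Crabp2 bars point down at 2 months and up at 8 months.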

How the data were processed

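The deposited table gives 1 log2 value per probe and sample. That it is log2 was read from its range (6.98 to 14.5), and a transform that only approaches log2 for bright probes cannot be told apart from it. Sorted columns agree within 0.00307 at every rank, which the authors may have reached by quantile normalization; the software and the background correction were not stated in those sources. Arrays correlated at 0.990 to 0.996 and none were identical; their number limits the precision. Probes were named through GEO's array annotation (34885 with 1 symbol, 18 with several, 10378 with none), and all 10 members' symbols matched RefSeq by gene number. A probe was kept when above the 50th percentile of its array on at least 3 arrays (22458 probes), and the kept probe with the highest mean stood for its gene. Changes and moderated standard errors come from limma 3.58.1 in R 4.3.3 (lmFit, eBayes, with 4 residual and 3.31 prior degrees of freedom). The fit was tested on simulated data only with planted changes larger than that of any member. That test does not cover changes as small as theirs. The p-values were adjusted by Benjamini-Hochberg over all 12046 genes, and the 95% intervals are not adjusted. Intervals of probes that do not stand for a gene are not given. Summed marker signals add 2 to the power of the log2 values. Groups and replicate numbers were taken from the sample titles; the descriptions number the 2 month samples 1, 1 and 2 instead, which bears on the replicate block. The text names every member, the 3 genes of each pathway list with the smallest p, and P2rx7; Rxrb, Rxrg, Stra6, Rpe65, Prkca, Gad2, Bmpr1b and other markers named were added after values were seen. The members and lists were chosen with earlier results of these data known. Alternatives covered the normalization, the filter, the probe that stands for a gene, the prior, the replicate number as a block and each sample left out, with the filter reapplied.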

Additional observations from a re-analysis of the deposited data

How the results depend on the processing

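With 0 members called by limma in the main setting and 1 with an unadjusted p below 0.05, 13 of 14 alternatives also called 0; with the robust and trended prior 1, Crabp2, was called. Counts over all genes, 19 higher and 8 lower, became 5 and 2 with no filter, 38 and 35 with the stricter filter and 52 and 52 with the robust and trended prior; other normalizations stayed within 18 to 20 and at 8, and the mean of all kept probes gave 13 and 6. Leaving out 1 sample gave 2 to 14 higher and 0 to 20 lower genes (the 0 came without 2 month replicate 1; unadjusted, 576 genes then had a lower level with p below 0.05), always 0 members called and a median change of the members from −0.0040 (without 2 month replicate 3) to 0.050. With the stricter filter 3 members were tested, with a median of −0.0048. The replicate block gave 14 higher and 18 lower genes, 0 members called and the same median of 0.03. The replicate numbers were not taken as pairs, because the deviations of samples with the same number correlated at 0.0239, 0.139 and 0.160, although each was above every correlation with another number. Near-zero changes turned sign when 1 sample was left out: Aldh1a1 from −0.32 to 0.31, Rarb from −0.033 to 0.031, Rarg from −0.0040 to 0.069, Cyp26b1 from −0.054 to 0.020, Fabp5 from −0.015 to 0.026, Rxrb from −0.069 to 0.11 and Rxrg from −0.13 to 0.012. None of the genes whose changes were recomputed (the tested members, the genes named from the pathway lists, Rxrb, Rxrg, Prkca, Gad2 and Bmpr1b) turned sign under the other 8 alternatives that gave a value. The cause of these shifts was not tested. Signal over background limits Aldh1a2, Aldh1a3, Rara, Rarg and Rxra.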
